A study of Equus caballus with 2 samples.

Results

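The genes described here are *IL11* and 8 further genes of the IL-6 cytokine family and its signalling chain in cultured equine endometrial fibroblasts: the ligands *IL11*, *IL6* and *LIF*, the receptor chains *LIFR*, *IL6ST*, *OSMR* and *IL11RA*, the transcription factor *STAT3* and the feedback inhibitor *SOCS3*. They were taken by gene symbol, and 8 of the 9 symbols were found among the 21426 genes listed in each library. No listed gene carried the symbol *IL11RA*, and that receptor was not analysed here. The set was chosen by measured values of these same libraries, so the ratios below describe the genes and are no independent evidence about the family.

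Fibroblasts of 4 mares, whose endometrium was healthy or only mildly fibrotic, were cultured on hydrogels coated with collagen and, after treatment, mixed in 1 pool per treatment from which 1 droplet library was made. All cells spent the period from 48 to 72 h of culture in serum-free medium with bovine serum albumin. Control cells received nothing further in these 24 h, while those of the TGF-β1 group were given human recombinant TGF-β1 at 10 ng/ml, a cytokine known to drive fibroblasts towards matrix production. The third treatment of the study, MFGE8, was not analysed here, and cells were not assigned to mares. Each transcript was counted by its unique molecular identifier (UMI).

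Kept were 3865 control cells with 210497250 UMIs (median 50313 per cell) and 4513 TGF-β1 cells with 219731144 UMIs (median 43142 per cell), after the study's limits of 20000 UMIs and 3500 genes as minimums and of 4% mitochondrial UMIs as maximum. The libraries shared 6 of their deposited cell barcodes and 2 of the kept ones. All 8 fibroblast markers were found in both libraries, and their summed level was 21660 UMIs per 1000000 (CPM) in control and 21780 CPM in TGF-β1 cells, most of it from collagens. Of the 8, *THY1* (215 and 87.5 CPM), *VIM* (4399 and 2240 CPM) and *PDGFRB* (80.1 and 49.0 CPM) were more than 1.5-fold lower after TGF-β1. The 4 of 6 epithelial markers that were found summed to 0.789 and 0.787 CPM, endothelial markers to 0.784 and 0.41 CPM and immune markers to 0.0665 and 0.0364 CPM, so the genes found of these 3 lists were at or near 0. The keratin gene *KRT8*, which is in none of them, had 114 CPM in control and 4.48 CPM in TGF-β1 cells. The smooth muscle and pericyte genes were expressed, *DES* with 646 CPM in control and 569 CPM in TGF-β1 cells, *RGS5* with 51.7 and 61.1 CPM and *MYH11* with 42.9 and 25.3 CPM. The part of these genes in the results was not tested. No cell type was present that should lack the family, so the level that free RNA gives to a droplet could not be measured.

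Cytokines of the IL-6 family share 1 signalling chain, gp130, which *IL6ST* encodes. A ligand first binds its own receptor, IL-11 the chain encoded by *IL11RA* and LIF the chain encoded by *LIFR*, and the complex then takes in gp130, while the chain of *OSMR* pairs with gp130 for oncostatin M. Janus kinases on these chains phosphorylate STAT3, which enters the nucleus and switches on, among others, *SOCS3*, whose product blocks gp130 and the kinases again. In endometrium LIF is known for its role in embryo implantation and IL-11 for its role in decidualization, and in fibroblasts of other organs *IL11* is a known target of TGF-β1.

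*IL11* had the largest ratio of the 7 members with a mean of at least 1 CPM. Its UMIs numbered 31566 in the control library (150.0 CPM) and 437982 in the TGF-β1 library (1993 CPM). TGF-β1 cells therefore held 13.3 times the control level, a log2 ratio of 3.73 (exact binomial 95% interval 3.72 to 3.75, which like all intervals here covers counting error only). This 1 gene took up 0.015% of all control UMIs and 0.199% of all TGF-β1 UMIs. By the size of the ratio it stood at place 12 from the top among the 12116 genes whose mean was 1 CPM or more. There was 1 library per treatment, so library preparation and treatment cannot be told apart and nothing was tested.

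*LIF* was also higher after TGF-β1, but by much less. It had 25 CPM in control and 35.9 CPM in TGF-β1 cells, a log2 ratio of 0.52 (0.47 to 0.57). *IL6*, the ligand that names the family, was close to absent from both libraries. It had 63 UMIs in 52 of the 3865 control cells and 2 UMIs in 2 of the 4513 TGF-β1 cells, a log2 ratio of -5.04 whose interval ran from -8.12 to -3.13. The ligands thus differed in direction: *IL11* and *LIF* were higher and the few *IL6* transcripts were on the control side.

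Of the receptor chains, *IL6ST* and *OSMR* were lower and *LIFR* slightly higher. *IL6ST*, the shared chain, had 135 CPM in control and 68.2 CPM in TGF-β1 cells, a log2 ratio of -0.99 (-1.02 to -0.96). *OSMR* had 24.6 and 12.5 CPM, a log2 ratio of -0.98 (-1.05 to -0.91). *LIFR* had 6.60 and 7.99 CPM, a log2 ratio of 0.28 (0.17 to 0.38). The levels of the shared chain and of the oncostatin M chain in TGF-β1 cells were thus about as far below control as 2-fold, and that of the LIF chain was slightly above it.

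Downstream, *STAT3* had 70.4 CPM in control and 49.8 CPM in TGF-β1 cells (log2 ratio -0.50, -0.54 to -0.46). *SOCS3*, which STAT3 induces, had 17.7 and 12.5 CPM (log2 ratio -0.51, -0.58 to -0.43). Both were lower in the library in which *IL11* was higher.

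**Figure D1:**
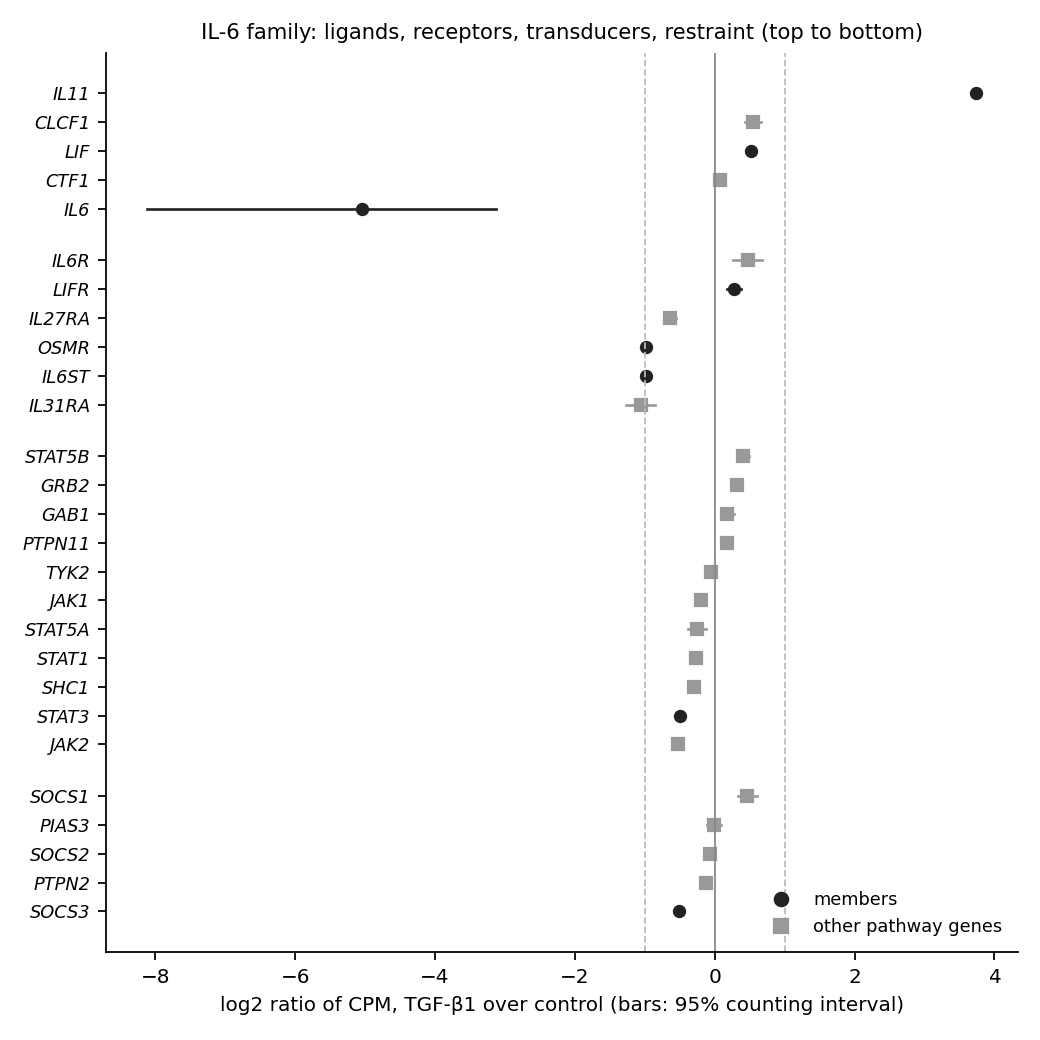
Log2 ratio of CPM, TGF-β1 over control, for the members (black circles) and for other genes of the pathway with a mean of at least 1 CPM (grey squares), grouped from top to bottom as ligands, receptors, transducers and genes of restraint; horizontal bars are 95% counting intervals and dashed lines mark 2-fold. *IL11* stands alone at 3.73, *IL6ST* and *OSMR* lie at the lower 2-fold line with -0.99 and -0.98, and the wide bar of *IL6* rests on 63 control and 2 TGF-β1 UMIs.

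Of the 7 members with a mean of at least 1 CPM, 1 was more than 2-fold higher in TGF-β1 cells, against 3.45% of the 12116 genes, and 0 were more than 2-fold lower, against 3.46%. At a limit of 1.5-fold, *OSMR* and *IL6ST* were lower, 2 of 7 members, against 9.36% of genes. These counts come from the contrast the members were chosen on and are given as a description. The median log2 ratio was -0.50 for the 7 members and -0.01 for all genes. *IL6ST* lay past 2-fold when the 6% of cells with the highest doublet scores were removed (log2 ratio -1.0026) and when each cell's own CPM was averaged (-1.0008), and *OSMR* in the latter case (-1.0156).

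Of the 27 further symbols of the pathway described here, 26 were found and 19 had a mean of at least 1 CPM. Of these 19, 0 were more than 2-fold higher, against 3.45% of all genes, and 1 was more than 2-fold lower, against 3.46%. *CLCF1*, the gene of cardiotrophin-like cytokine, had 4.69 CPM in control and 6.84 CPM in TGF-β1 cells (log2 ratio 0.54, 0.43 to 0.66). The lower one was *IL31RA*, which with the chain of *OSMR* forms the interleukin-31 receptor, with 2.81 CPM in control and 1.35 CPM after TGF-β1 (-1.06, -1.27 to -0.86). The 2 chains of that receptor were therefore both lower after TGF-β1.

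The other ligands and receptors were sparse or under 2-fold apart. *OSM*, the gene of oncostatin M, had 0.076 CPM in control and 0.164 CPM in TGF-β1 cells, so the ligand of the *OSMR* chain was nearly absent from these cells. *IL6R*, the chain that binds IL-6, had 1.53 and 2.12 CPM (0.47, 0.26 to 0.68), and *CTF1*, the gene of cardiotrophin-1, had 15.0 and 15.7 CPM (0.07, -0.0014 to 0.14). The kinase genes *JAK1*, with 112 and 97.7 CPM (-0.19), and *JAK2*, with 40.8 and 28.3 CPM (-0.53), were both under 2-fold. Of the 10 other transducer genes and the 4 other genes of restraint at 1 CPM or more, 0 were more than 2-fold apart in either direction, against 3.45% of all genes that were higher by that much and 3.46% that were lower.

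Shares of cells were compared at equal depth, after random thinning of each cell to 20000 UMIs, and a cell with at least 1 UMI of a gene was counted as having it. *IL11* was found in 58.0% of control cells, with an exact binomial 95% interval from 56.4% to 59.5%, and after TGF-β1 in 98.8% of cells (98.4% to 99.1%). Without thinning the shares were 77.2% and 99.7%. The control share depended on depth and detection limit, with 43.7% at 10000 UMIs per cell and 35.9% when 2 UMIs were asked for, whereas the gene was missing in only 54 of 4513 thinned TGF-β1 cells.

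The amount per cell differed as well as the share. The median thinned control cell held 1 UMI of *IL11*, the middle 50% of cells ranged from 0 to 2, and the highest cell held 237. The median thinned TGF-β1 cell held 27, the middle 50% ranged from 11 to 54, and the highest cell held 408. In control the *IL11* transcripts were packed into few cells: the 38 cells with most *IL11*, the top 1%, held 24.3% of all its thinned UMIs, and the 386 cells of the top 10% held 66.0%. In TGF-β1 cells the top 1% held 6.48% and the top 10% held 35.2%. Most control transcripts of *IL11* were thus in 1 cell of 10, whereas after TGF-β1 they were spread over the culture.

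**Figure D2:**
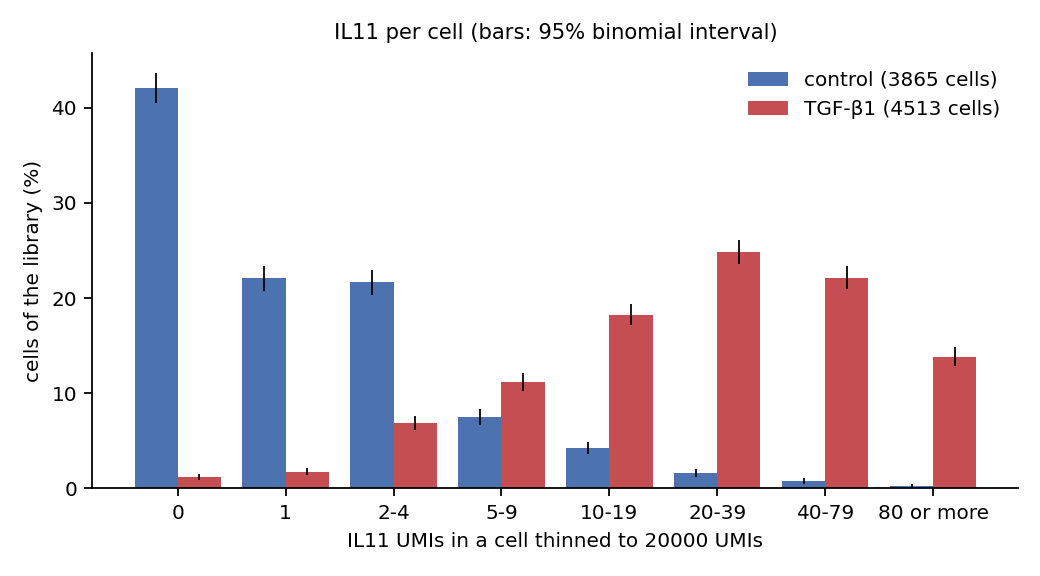
Share of kept cells in percent (vertical axis, with exact binomial 95% intervals) by the number of *IL11* UMIs in a cell thinned to 20000 UMIs (horizontal axis, unequal bins), for 3865 control cells (blue) and 4513 TGF-β1 cells (red). Control cells peak at 0 UMIs with 42% and TGF-β1 cells in the bin of 20 to 39 UMIs with 24.8%, and a short control tail reaches 80 or more UMIs in 0.259% of cells.

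The 2 distributions overlapped in their tails. Of the control cells, 68 of 3865 (1.76%, 1.37% to 2.22%) held at least 27 thinned *IL11* UMIs, the median of TGF-β1 cells. Of the TGF-β1 cells, 132 of 4513 (2.92%, 2.45% to 3.46%) held at most 1, the control median. The 68 high control cells had 2814 CPM of *IL11* (exact Poisson 95% interval 2726 to 2905) against 102 CPM in the other 3797 control cells, a difference fixed by how they were picked.

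In other genes, the position of the 68 high control cells between the rest of the control library and the TGF-β1 cells varied. *TGFBI*, a matrix protein gene induced by TGF-β, had 806 CPM (759 to 855) in them, against 377 CPM in the other 3797 cells and 1967 CPM after TGF-β1. *PMEPA1*, an inhibitor of TGF-β signalling that TGF-β itself induces, had 86.8 CPM (71.8 to 104), 28.2 and 125 CPM. *LIF* had 57.4 CPM (45.3 to 71.6), 24.0 and 35.1 CPM. *SOCS3* had 8.09 CPM (4.04 to 14.5), against 18.7 CPM in the other control cells and 12.9 CPM after TGF-β1. *KRT8*, a keratin gene, had 4.41 CPM (1.62 to 9.60), against 110 and 4.33 CPM. Among the receptor and transducer genes, *LIFR* had 13.2 CPM (7.84 to 20.9) against 6.33 CPM in the rest of the control library, *IL6ST* 97.8 CPM (81.9 to 116) against 133 CPM and *STAT3* 50 CPM (38.8 to 63.4) against 69.9 CPM. The high *IL11* control cells therefore held more *LIF*, *LIFR*, *TGFBI* and *PMEPA1* and less *IL6ST*, *STAT3*, *SOCS3* and *KRT8* than the rest, beyond counting error, while for *OSMR* (21.3 CPM, 14.3 to 30.6, against 24.7 CPM) the level of the rest lay inside the interval. By rebuilt cluster, their number ran from 0 of 171 and 0 of 134 control cells in clusters 5 and 6 to 21 of 540 (3.89%) in cluster 4.

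In TGF-β1 cells the other members were found in fewer cells than *IL11* and at lower counts. In control, *IL6ST* and *STAT3* were found in more cells than *IL11* (58.0%), and the others in fewer. *LIF* was found in 29.9% of thinned control cells (28.4% to 31.4%) and 39.5% of thinned TGF-β1 cells (38.1% to 41.0%), with at most 9 and 16 UMIs in a cell. *IL6ST* was found in 87.3% and 69.2% of cells, *STAT3* in 68.9% and 57.9%, *OSMR* in 35.0% and 21.2%, *SOCS3* in 27.1% and 21.2%, and *LIFR* in 11.7% and 12.9%. *IL6* was found in 20 of 3865 thinned control cells (0.518%) and in 2 of 4513 thinned TGF-β1 cells (0.0443%). The shares moved in the same direction as the CPM for each of these genes.

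Without thinning, the 52 control cells with *IL6* lay in all 8 clusters, from 1 cell in cluster 6 to 12 in cluster 3. Their median depth was 50485 UMIs, against 50313 in the other control cells. *IL6ST* was found in 52 of the 52 cells (93.2% to 100%), against 97.8% of the other control cells, and *LIF* in 34 (65.4%, 50.9% to 78.0%), against 50.4% of the other 3813 control cells. *IL11* was found in 35 of them (67.3%, 52.9% to 79.7%), against 77.3% of the others, which lies inside that interval.

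Co-detection asks whether the cells that make a ligand also hold the chains that could read it. For IL-11 it covers the shared chain and *STAT3* only, since no listed gene carried the symbol *IL11RA*. A UMI of both *IL11* and *IL6ST* was found in 50.2% of thinned control cells (48.6% to 51.8%) and 68.2% of thinned TGF-β1 cells (66.9% to 69.6%), next to products of the separate shares of 50.6% and 68.4%. Of the cells with *IL11*, 86.6% of control cells (85.1% to 88.0%) and 69.1% of TGF-β1 cells (67.7% to 70.4%) held *IL6ST*. For TGF-β1 cells that share was 89.3% without thinning and 46.0% at 10000 UMIs, so shares of pairs depend on depth and a cell without a UMI may still express the gene. The share with *IL11*, *IL6ST* and *STAT3* together was 34.1% and 40.6%. For the LIF receptor complex, *LIFR* and *IL6ST* were found together in 10.3% and 9.84% of cells, and *LIF* with both chains in 3.23% and 3.48%. For the oncostatin M receptor, *OSMR* and *IL6ST* were found together in 31.0% of control cells and 15.2% of TGF-β1 cells. The higher share with *IL11* and the shared chain thus followed the share of *IL11* alone, while after TGF-β1 fewer cells held the pair of the oncostatin M receptor, and for the pair of the LIF receptor the intervals overlapped (9.38% to 11.3% and 8.98% to 10.7%).

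*LIF* was found with *IL11* in 19.2% of control cells, where the product of their separate shares gave 17.3%. In TGF-β1 cells the share with both was 39.2% and the product 39%, since nearly every cell held *IL11*. Among control cells with *IL11*, 33.0% held *LIF* (31.1% to 35.0%), against 25.5% of cells without it (23.4% to 27.7%). Among the TGF-β1 cells with *IL11*, 39.7% held *LIF* (38.2% to 41.2%), against 24.1% of the 54 cells without it (13.5% to 37.6%). *SOCS3* went the other way in control, with 24.2% of the cells with *IL11* (22.4% to 26.0%) and 31.2% of those without it (28.9% to 33.5%). The shares of *OSMR* in control cells with and without *IL11* were 35.2% and 34.8%, within each other's intervals.

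The amount of *IL11* in a cell went with *LIF* in both libraries. Of control cells with 0, 1 to 9, 10 to 29 and 30 or more thinned *IL11* UMIs, 25.5%, 31.3%, 42.4% and 57.8% held *LIF*. In TGF-β1 cells the same bands gave 24.1%, 27.9%, 37.2% and 46.5%. The level of *LIF* went from 19.9 through 25.1 and 47.2 to 59.4 CPM over the control bands and from 16.7 through 21.4 and 30.3 to 44.7 CPM over those of TGF-β1 cells. The libraries were not compared within a band, because the bands are set by *IL11* itself and the top one held 64 control but 2096 TGF-β1 cells. The median depth before thinning ran from 48924 to 51112 UMIs over the control bands and from 42534 to 43920 UMIs over the TGF-β1 bands, and its part in the result was not tested.

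*IL6ST* showed the opposite order in TGF-β1 cells, with 81.5%, 75.5%, 70.6% and 65.3% of cells over the 4 bands. In control, where most cells held the gene, the shares were 88.2%, 87.2%, 81.3% and 84.4%. Its level declined over the bands in control, from 142 CPM (138 to 146) through 128 and 112 to 98.4 CPM (82.0 to 117), and over the upper 3 bands in TGF-β1 cells, from 82.8 CPM (78.6 to 87.1) through 68.0 to 59.5 CPM (57.2 to 61.9). *SOCS3* in control went from 31.2% through 24.7% and 22.7% to 14.1% (6.64% to 25%), and in TGF-β1 cells with *IL11* it stayed between 20.9% and 22.0%. Between the second and the top band, *IL6ST* in TGF-β1 cells differed beyond counting error (72.5% to 78.3% and 63.2% to 67.3%), as did *SOCS3* in control between the lowest and the top band.

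**Figure D3:**
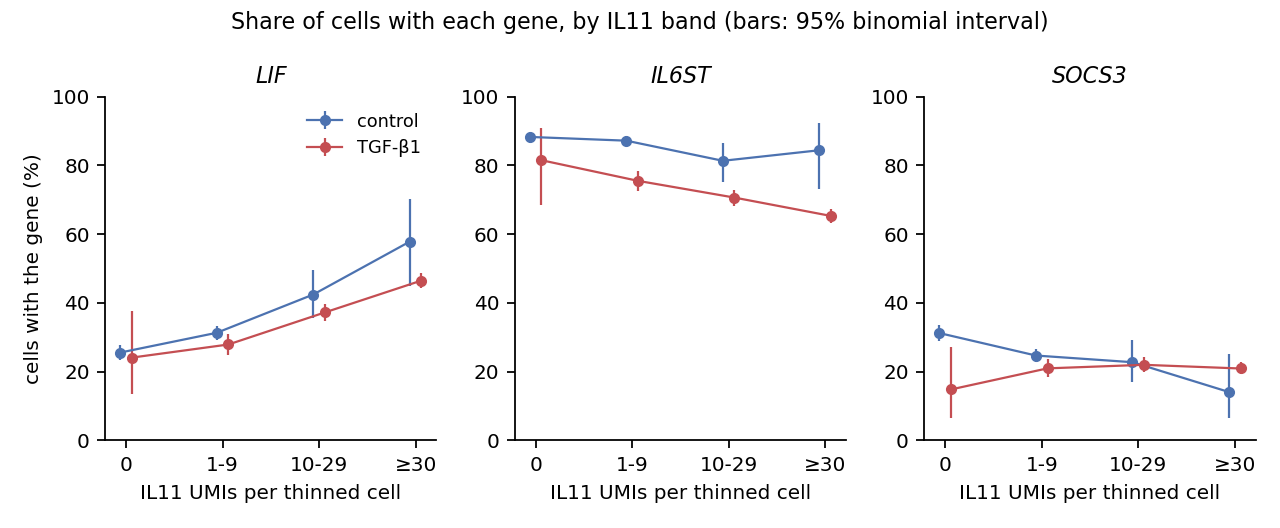
Share of cells in percent with *LIF*, *IL6ST* and *SOCS3* (vertical axes) by the number of *IL11* UMIs in a cell thinned to 20000 UMIs (horizontal axes), in control (blue) and TGF-β1 (red) cells, with exact binomial 95% intervals. *LIF* climbs from 25.5% to 57.8% in control and from 24.1% to 46.5% in TGF-β1 cells, while *IL6ST* in TGF-β1 cells declines from 81.5% to 65.3%.

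The genes whose counts went most closely with *IL11* from cell to cell were found by Pearson's correlation of log(1 + thinned UMIs) within the TGF-β1 library, over 4513 cells and 9614 genes found in 5% to 95% of cells. These cells share a library and a depth, but not a cluster or a mare, and the values are a description with no test. The highest was a gene without a symbol, ENSECAG00000030502 (r = 0.39), followed by *SERPINB2* (0.35), an inhibitor of plasminogen activators, *BDKRB1* (0.32), a bradykinin receptor, and *PTGS2* (0.32), the inducible enzyme of prostaglandin synthesis. Then came *TNC* (0.29) and *FAP* (0.27), a matrix glycoprotein and a surface protease of activated fibroblasts, *ACTG2* (0.27), an actin of smooth muscle, and *AVPI1*, *EDNRB* and *RCAN1* (0.25 each). The value for *LIF* was 0.20.

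In the control library, 6 of these 10 genes were again among the 10 most alike: ENSECAG00000030502, *SERPINB2*, *BDKRB1*, *PTGS2*, *AVPI1* and *RCAN1*. The highest there was *COL15A1*, a basement membrane collagen, at 0.27 over 3865 cells. Genes alike in their cell-to-cell pattern did not all differ in the same direction between the libraries. *SERPINB2* (126 and 346 CPM) and *TNC* (132 and 389 CPM) were higher after TGF-β1, whereas *PTGS2* (89.9 and 65.7 CPM) and *EDNRB* (64.7 and 27.5 CPM), an endothelin receptor, were lower. Among known STAT3 targets, *IER3* had an r of 0.41 with *IL11* in TGF-β1 cells. It was found in too many cells for the range above and was picked after its value was seen.

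The cells of both libraries were clustered again without the members, which gave 8 clusters, named here by number and by their 3 leading genes. *IL11* was higher in TGF-β1 cells in 8 of 8 clusters, with log2 ratios from 3.02 in cluster 2 (led by *NLGN1*, *FAM216B* and *COL23A1*) to 5.05 (4.94 to 5.18) in cluster 5 (*KRT8*, *CRABP2* and *SAA1*). The highest cluster ratio was 4.96 in the 11 clusters of a resolution of 0.8 and 4.16 in the 6 clusters of a resolution of 0.3. The control level was highest in cluster 4 (*GRIK2*, *ALDH2* and *PTGS2*), with 263 CPM, followed by clusters 2 (193), 1 (156), 0 (138), 6 (126), 7 (118), 5 (75) and 3 (68.4, led by *AREG*, *KRT7* and *ANKRD1*). The neighbours 6 and 7, and 5 and 3, did not differ beyond counting error.

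After TGF-β1 the order was 4 (2667 CPM), 5 (2492), 6 (2267), 0 (2180), 1 (2152), 7 (1794), 2 (1569) and 3 (1141), and no neighbours overlapped in their Poisson intervals. These intervals leave out the spread from cell to cell. In thinned TGF-β1 cells the variance of *IL11* was 47.4 times its mean, and the order of close neighbours was not tested against that spread. Cluster 4 was the highest and cluster 3 the lowest in both libraries. Clusters 5 and 2 exchanged places, cluster 5 from place 7 of 8 in control, where it overlapped with cluster 3, to place 2 of 8 after TGF-β1, and cluster 2 from place 2 to place 7. Cluster 5 held 171 control and 201 TGF-β1 cells, and its median depth was 43792 UMIs in control and 34354 in TGF-β1 cells.

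*LIF* was likewise highest in cluster 4, with 43.9 CPM in control and 60.2 CPM in TGF-β1 cells, and lowest in cluster 5, with 10.5 and 20.6 CPM, the latter within counting error of cluster 3. Its ratio was above 0 in 8 of 8 clusters, from 0.11 in cluster 3 (-0.04 to 0.26) to 0.98 in cluster 5 (0.58 to 1.38), and the interval lay above 0 in 6 of them. *OSMR*, *IL6ST*, *STAT3* and *SOCS3* were each lower after TGF-β1 in 8 of 8 clusters, with intervals below 0 in all 8 except for *SOCS3*, where that of cluster 7 (-1.01 to 0.28) held 0. Log2 ratios ran from -1.20 to -0.62 for *OSMR*, from -1.12 to -0.67 for *IL6ST*, from -0.65 to -0.34 for *STAT3* and from -0.82 to -0.26 for *SOCS3*. *LIFR* was higher in 5 and lower in 3 clusters, with an interval above 0 in 3 and below 0 in 0.

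Receptor and transducer levels also differed between clusters of 1 library. Cluster 2 had the highest control level of *IL6ST* (176 CPM), *STAT3* (93.8 CPM), *LIFR* (8.95 CPM) and *SOCS3* (21.1 CPM). Cluster 5 had the lowest control level of *IL6ST* (77.7 CPM), *STAT3* (29.3 CPM), *LIFR* (2.56 CPM) and *OSMR* (16.2 CPM), and again the lowest after TGF-β1, with 35.8, 18.6, 2.43 and 8.63 CPM. The lowest levels of *OSMR* in both libraries and of *LIFR* in control, and the highest of *LIFR* and *SOCS3*, overlapped in their intervals with the next cluster. The cluster in which *IL11* was furthest from control at this resolution thus had the least of the shared chain and of *STAT3* in both libraries.

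**Figure D4:**
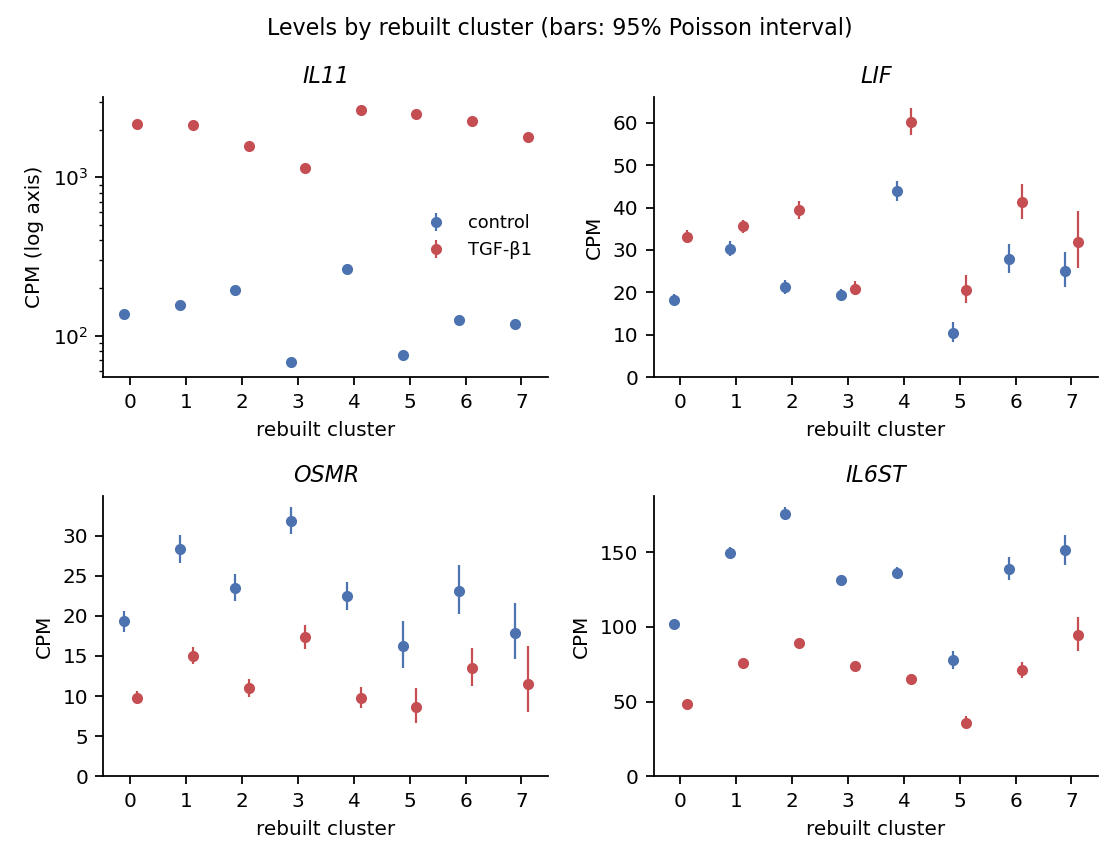
CPM of *IL11* (log axis), *LIF*, *OSMR* and *IL6ST* (axes from 0) in each of the 8 rebuilt clusters, for control (blue) and TGF-β1 (red) cells, with exact Poisson 95% intervals for counting error. *IL11* is higher in TGF-β1 cells of every cluster, *OSMR* and *IL6ST* are lower in every cluster, and *LIF* is highest in cluster 4 of both libraries with 43.9 and 60.2 CPM.

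*IL11* was also read in cells that carry marker genes of particular fibroblast states, at 20000 UMIs per cell. Control cells with *KRT8* had 73.9 CPM of *IL11* (70.2 to 77.7), against 176 CPM in control cells without it, and the 148 TGF-β1 cells with *KRT8* had 1062 CPM against 2067 CPM. Control cells with *IGFBP3*, an insulin-like growth factor binding protein gene, had 368 CPM (350.1 to 387) against 137 CPM. In TGF-β1 cells the gap was smaller, with 2153 CPM against 1954 CPM. Cells with *AREG* (102 against 152 CPM in control, 1890 against 2077 CPM after TGF-β1) held less *IL11* than those without it in both libraries. Control cells with *CFD* had 124 CPM of *IL11* against 171 CPM, whereas TGF-β1 cells with and without it overlapped (2046 CPM, 2022 to 2070, against 2032 CPM, 2021 to 2042). Control cells with *VCAM1* had 100.3 CPM against 152 CPM, and only 1 TGF-β1 cell held *VCAM1*. Cells with 3 or more cycling markers did not differ from the rest beyond counting error in control (136 CPM, 118 to 156, against 150.1 CPM), and after TGF-β1 they had 2125 CPM (2048 to 2204) against 2032 CPM. These intervals leave out the spread of *IL11* from cell to cell, which matters most in small groups such as the 68 cycling TGF-β1 cells. None of these gaps was tested against it.

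Depth moved with several members, and its part in the results by cell was not tested. With TGF-β1 cells split by their UMIs into 4 equal groups, from fewest to most, *IL11* went from 2263 through 1991 and 1986 to 1895 CPM after thinning, and *IL6ST* from 59.1 through 62.0 and 73.3 to 74.0 CPM. The same groups of control cells had 156, 144, 165 and 134 CPM of *IL11*, with no order, but 21.1, 20.2, 17.6 and 15.1 CPM of *SOCS3*. In each of the 4 groups *IL11* was thus over 10 times as high after TGF-β1.

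To see how the family stood beside its own target genes and beside the treatment, lists of known STAT3 targets and of known TGF-β targets were read in the same way. Of 22 genes of the STAT3 list, 20 were found and 18 had a mean of at least 1 CPM, of which 2 were more than 2-fold higher, against 3.45% of all genes, and 4 more than 2-fold lower, against 3.46%. The higher ones were the cyclin gene *CCND1*, with 78.9 CPM in control and 176 CPM in TGF-β1 cells, and the vascular growth factor gene *VEGFA*, with 23.4 and 48.8 CPM. The lower ones were the transcription factor genes *FOS* (194 and 64.3 CPM), *CEBPD* (1317 and 527 CPM) and *KLF4* (110 and 42.2 CPM) and the regulator gene *BCL3* (12.6 and 5.19 CPM). Their median log2 ratio was -0.39, with 5 above and 13 below 0, against -0.01 over all 12116 genes, of which 6219 were below 0. Many of these genes also answer to other signals.

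Of the 18 known TGF-β targets, 17 had a mean of at least 1 CPM, 8 were more than 2-fold higher (3.45% of all genes) and 0 more than 2-fold lower (3.46%), with a median log2 ratio of 0.85. The 5 with the largest ratios were *TGFBI* (2.32), *PMEPA1* (2.13), the fibronectin gene *FN1* (1.65), the collagen cross-linking enzyme gene *LOX* (1.38) and the contractile gene *CNN1* (1.23). Of the listed genes, *TGFB1* itself, at 21.2 and 20.1 CPM, was the 1 of 17 below 0. The ratio of *IL11* was larger than that of each of the 17.

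**Figure D5:**
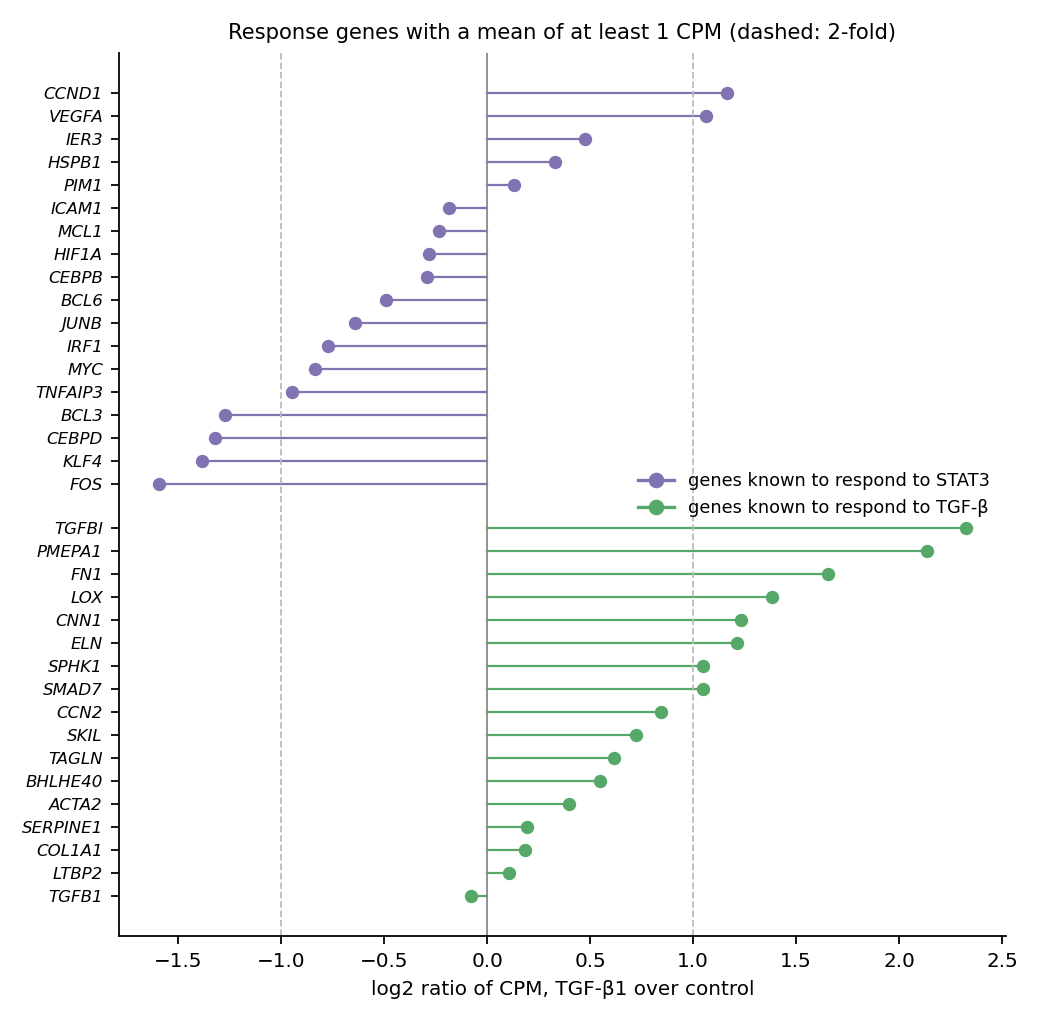
Log2 ratio of CPM, TGF-β1 over control, for 18 known STAT3 targets (purple) and 17 known TGF-β targets (green), each with a mean of at least 1 CPM; dashed lines mark 2-fold. The STAT3 list runs from -1.59 (*FOS*) to 1.16 (*CCND1*) with 13 of 18 genes below 0, and the TGF-β list from -0.08 (*TGFB1*) to 2.32 (*TGFBI*) with 16 of 17 above 0.

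Within a library, cells with more of the TGF-β response also differed in the family. Cells were ranked by the mean log(1 + thinned UMIs) of the 18 TGF-β response genes, none of which is a member, and split into 4 equal groups. In control, *IL11* went from 78.6 through 118 and 176 to 227 CPM from the lowest to the highest group, and *LIF* from 19.6 through 22.0 and 27.7 to 29.1 CPM. *IL6ST* went from 158 through 140.0 and 126 to 105 CPM, and *SOCS3* from 24.0 through 19.3 to 15.4 CPM in both upper groups. The median depth before thinning also went up over these groups, from 42784 through 48846 and 53423 to 57449 UMIs in control and from 37182 to 49876 UMIs in TGF-β1 cells, and its part was not tested. *OSMR*, with 25.8, 24.0, 24.2 and 24.5 CPM, and *LIFR*, with 5.07, 7.09, 5.38 and 8.27 CPM, had no order over the control groups, and *STAT3* went from 77.1 through 69.2 and 68.6 to 63.3 CPM.

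In TGF-β1 cells, the groups differed less in relative terms for *IL11* and *IL6ST*, but not for every member. *IL11* had 1899, 2032, 2113 and 2090 CPM, and *IL6ST* 71.3, 66.0, 63.9 and 67.2 CPM. *LIF* had 30.3 CPM in the lowest and 40.5 CPM in the highest group, and *SOCS3* 15.8 and 10.6 CPM. The highest control group, at 227 CPM of *IL11* (221 to 234), remained far below the lowest TGF-β1 group, at 1899 CPM (1881 to 1917).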

How the data were processed

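UMI counts per gene and cell barcode were deposited by the authors for 2 libraries, each of cells pooled from 4 mares. The reads had been counted with Cell Ranger (7.1.0 in the submitters' processing notes, 8.0.1 in the file header) against EquCab3.0 with the Ensembl annotation. The deposited counts were whole numbers, not normalized, and the study's cell filters had not been applied to them. These filters were applied here (20000 UMIs, 3500 genes, under 4% mitochondrial UMIs), which kept 88.2% of 4384 control and 88.1% of 5124 TGF-β1 barcodes. The study removed doublets by genotype, which needs reads. Doublets were left in. Scrublet, which reads expression and not genotype, marked only 2 control and 0 TGF-β1 cells, and the share of doublets among cells so alike was not measured.

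UMIs of kept cells were summed per library and scaled to CPM, and ratios were taken without a pseudocount. Intervals are exact binomial (shares, ratios) or Poisson (levels in groups of cells). Those of ratios and levels were computed from UMIs and leave out the spread from cell to cell. With 1 library per group there was no test, and the study's edgeR comparisons were not repeated. Shares use cells thinned to 20000 UMIs. Clusters were rebuilt in Seurat 5.3.0 and R 4.3.3 (1998 variable genes without the members, 30 dimensions, canonical correlation integration, resolution 0.5) and were not matched to the study's. Other steps used Python 3.11.15, numpy 2.4.6, scipy 1.17.1, pandas 2.3.3, scanpy 1.11.5 and matplotlib 3.10.9. The calculation of ratios was run on simulated Poisson counts with known folds. These have no spread from cell to cell, so this checks the calculation only.

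The members and lists were chosen with earlier results of these data known, and the bands of *IL11*, the 4 equal groups of cells and the high control cells after seeing the data. Named are all members, pathway genes more than 2-fold apart with a mean of at least 1 CPM, *IL6R*, *JAK1* and *JAK2*, the 10 genes most like *IL11* and the 5 TGF-β response genes with the largest ratio. A further gene of the pathway is not reported here. Other genes are named for their role or were chosen after their values were seen. The alternatives were all deposited barcodes, a mitochondrial limit of 6%, a UMI minimum of 10000, removal of cells above the 98th percentile of UMIs or with the highest 6% of Scrublet scores, a median-of-ratios size factor, mitochondrial genes left out, the mean of per-cell CPM, equal cluster shares, other CPM minimums, a limit of 1.5-fold, other thinning and detection limits, resolutions of 0.3 and 0.8 and no integration.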

Additional observations from a re-analysis of the deposited data

Results flagged for a closer look

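*IL11* was also found in barcodes that the cell filters leave out. The 611 TGF-β1 barcodes outside the filters had 1520 CPM of *IL11* (6777 UMIs, found in 76.1% of these barcodes), and the 519 control barcodes outside them had 233 CPM (882 UMIs, 22.7%), a log2 ratio of 2.71 (2.60 to 2.81). The median depth of these barcodes was 6107 UMIs in the TGF-β1 and 3728 UMIs in the control library. Their median mitochondrial share was 10.2% and 3.23%. They were drawn to attention because they lie outside the cells used above and exceed the control library. In them *IL6ST* had a log2 ratio of -0.92 (-1.09 to -0.76), and *LIF* one of 0.72 (0.44 to 1.01), both near those of the kept cells. *OSMR*, at -0.26 (-0.62 to 0.10), *SOCS3*, at 0.04 (-0.49 to 0.57), and *LIFR*, at -0.0048 (-0.60 to 0.59), had intervals that held 0.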

How the results depend on the processing

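The ratios of the 8 members kept their direction in all of 72 recalculations, and 69 stayed inside the counting interval. The 3 that left it were all of *IL11*, at 3.71 with all deposited barcodes, with the highest Scrublet scores removed and with equal cluster shares, against 3.73, and its full range was 3.71 to 3.74. The number of genes past the limit depended on the minimum level and the limit: 176 higher and 163 lower at 10 CPM, 1105 and 1183 with no minimum, and 926 and 1134 at 1.5-fold, against 418 and 419. The number of members past it was 2 with no minimum, where *IL6* was counted, and 3 at 1.5-fold. The share of control cells with *IL11* was 77.2% without thinning, 43.7% at 10000 UMIs and 35.9% from 2 UMIs. That of TGF-β1 cells was 99.7% without thinning, 96.8% at 10000 UMIs and 97.1% when 2 UMIs were asked for, and that of *IL11*-positive TGF-β1 cells with *LIF* was 58.2%, 25.4% and 16.9%, so the share of *LIF* depends on depth and detection limit. The lowest cluster ratio of *IL11* was 3.16 at a resolution of 0.3, 2.96 at 0.8 and 3.92 without integration, where 1 cluster held enough cells of both libraries, and the highest was 4.16, 4.96 and 3.92, against 5.05. No paired analysis was possible because each group is 1 library and its cells were not assigned to the 4 pooled mares here. The cells come from pooled mares, so differences between mares or between repeated cultures are in none of the intervals.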
